A study of Homo sapiens with 6 samples.

Results

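The transcripts of 36 genes that control or carry out programmed cell death were followed in PC-3 tumors from mice given WCE or vehicle. They were chosen by gene symbol: 5 prosurvival BCL2 family members, 7 BH3-only genes, 3 pore-forming or other BCL2 family members, 6 caspases, 6 apoptosome and mitochondrial death factors, 3 IAP genes, 4 genes of the death receptor complex and 2 necroptosis genes. All 36 were found among the 24000 entries of the expression table, and 34 had a mean of at least 0.5 FPKM (sequenced fragments scaled by transcript length and by the depth of the library) over the 6 tumors and could be tested. PC-3 is an established human prostate cancer cell line that grows without androgen. In the study, luciferase-carrying cancer cells were injected into the anterior prostate of male athymic nude mice, which were 6 weeks old on arrival and which lack mature T cells but keep myeloid cells. WCE, an extract of the herb Wedelia chinensis, or vehicle was given by mouth, and RNA from 3 individual tumors per group was sequenced. The sample labels give 10 weeks of treatment for both groups and no dose, whereas the text of the study gives 7 weeks at 10 mg/kg daily in one place and 30 mg/kg in another, so dose and time are uncertain here. The comparison of both groups asks whether WCE given to the host was accompanied by a different level of these transcripts in the tumor.

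Apoptosis through mitochondria is set by the balance within the BCL2 family. Prosurvival members hold back the pore formers BAX and BAK1, and BH3-only proteins release them by binding the prosurvival members or by activating the pore formers directly. Once the outer membrane is open, cytochrome c joins APAF1 and activates caspase-9 and then the executioner caspases, which IAP proteins restrain. Death receptors feed into the same machinery through FADD and caspase-8, with BID as the link to mitochondria, and where caspase-8 is blocked the kinases RIPK1 and RIPK3 can start necroptosis through MLKL. PC-3 cells carry no functional p53, the transcription factor that raises several of these genes after DNA damage.

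One pair of libraries across the groups was nearly identical. Over 1915 entries with a mean of at least 50 FPKM, vehicle tumor 3 and WCE tumor 1 had a median absolute difference of 0.0276 on the log2(FPKM + 1) scale, against 0.0950 to 0.247 in the other 14 pairs of tumors. None of the 15805 entries above 0 in WCE tumor 1 was at 0 in vehicle tumor 3, and the steps between low values put the depth of WCE tumor 1 at 25.0% of that of vehicle tumor 3, with the other tumors at 64.8% to 85.2%. Over the 36 death genes the median absolute difference of that pair was 0.0396, against 0.0822 to 0.201 in the other pairs. The labels call all 6 tumors individual, but whether this pair is 2 tumors or 1 was not tested, so n = 3 per group rests on the labels. The comparisons of the death genes are therefore also given without both libraries, as 2 against 2 tumors. Among the other pairs, WCE tumors 2 and 3, the WCE tumors kept there, were the most alike (0.0950 and 0.0822). The epithelial markers EPCAM, KRT8, KRT18 and KRT19 were at 123 FPKM or more in every tumor, and the androgen-dependent prostate markers KLK2 and KLK3 were at 0 in all 6. EPCAM was lower with WCE, by 0.73 on the log2(FPKM + 1) scale (unadjusted p = 0.00889 by limma, a linear model fitted to all entries), and by 1.08 with 2 against 2 tumors (0.000551). The other epithelial markers KRT8, KRT18 and KRT19 differed by 0.05, 0.10 and -0.01 (unadjusted p = 0.695, 0.446 and 0.949 by limma). Their differences were 0.07, 0.14 and -0.02 with 2 against 2. Of the markers of other cells, the endothelial KDR was higher with WCE (0.22, 0.25 and 0.53 FPKM against 0.56, 1.59 and 5.12 FPKM, log2 difference 1.14, unadjusted p = 0.0345 by limma, and 1.69 and 0.00839 with 2 against 2). The endothelial PECAM1 overlapped between the groups, at 0.86, 2.95 and 2.61 FPKM against 2.48, 2.05 and 2.37 FPKM. Its log2 difference was 0.14 (unadjusted p = 0.613 by limma), and 0.24 (0.537) with 2 against 2. The fibroblast marker LUM was lower (3.15, 1.94 and 0.60 FPKM against 0.67, 0.34 and 0.48 FPKM, log2 difference -0.85, unadjusted p = 0.0308 by limma, and -1.31 and 0.00139 with 2 against 2). Among the other fibroblast markers, COL1A1 was at 29.5, 41.5 and 44.0 FPKM against 42.8, 10.4 and 45.7 FPKM. COL1A1 differed by -0.44 (unadjusted p = 0.41 by limma) and COL3A1 by -0.51 (0.353), and the groups of both overlapped. COL1A2, DCN and PDGFRB were at 0.63 FPKM or lower in every tumor, with the COL1A2 mean higher with WCE (0.20 against 0.29 FPKM). The endothelial CDH5, VWF and TEK were under 0.1 FPKM in every tumor. The part of other cells in the differences of the death genes was not tested. The table is of human genes, hg19 and mm10 are both among the genome builds named for its making, and whether reads of mouse cells were set aside first is not given in the sources used here. In bulk tumors, fewer cells of a type and less RNA per cell cannot be told apart.

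Tumors of both groups held transcripts of nearly the whole death machinery. Of the 36 genes, 34 were above 0 in every tumor, 7 had a mean of at least 50 FPKM (BCL2L1, BCL2L2, MCL1, BAD, PMAIP1, CYCS and FADD), 20 were at 5 to 50 FPKM, 5 at 1 to 5 FPKM and 4 (BCL2, CASP10, HRK and RIPK3) under 1 FPKM. FPKM is scaled by transcript length, so these levels can be set beside each other. The prosurvival gene that gave the family its name, BCL2, was listed at 0.58 to 0.92 FPKM, whereas its relative BCL2L1 (BCL-XL) had the highest mean of all 36 genes, although MCL1 was above it in WCE tumor 2. The entry of BCL2L2 (BCL-w) also covers PABPN1, a gene for a poly(A)-binding protein, so its 112 to 145 FPKM cannot be assigned to BCL2L2 alone.

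**Figure D1:**
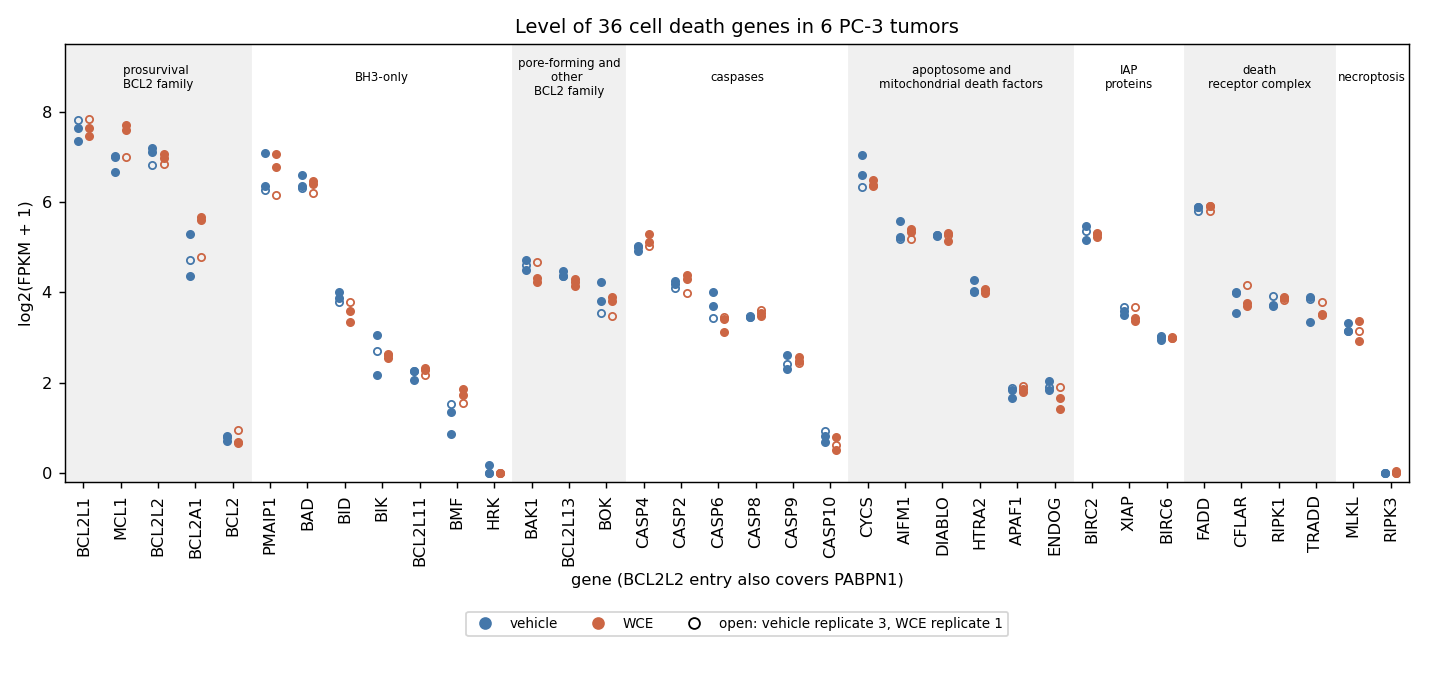
Level of each of the 36 genes in the 6 tumors as log2(FPKM + 1), grouped by role, with 1 point per tumor (blue, vehicle; orange, WCE; open points, vehicle tumor 3 and WCE tumor 1). BCL2L1, MCL1 and CYCS lie near the top in every tumor, BCL2 and CASP10 stay under 1 FPKM, and HRK and RIPK3 lie at or near 0.

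Promoter sequence from RefSeq (GRCh38.p14, 250 bases before to 50 after the first listed start) was found for 30 of the 36 genes, and the BCL2L2, MCL1, BIK, CASP10, TRADD and RIPK3 promoters were not analysed here. Searched on both strands, the GC box GGGCGG stood in 22 of the 30 (73.3%), against 44.6% of 27305 promoters, the CCAAT box in 12 (40%), against 35.7%, and the TATA box TATAAA in 3 (10%: BCL2A1, BCL2L1 and RIPK1), against 11.95%. No promoter of the 30 held GGG followed after any 2 bases by TTTCC, a sequence of the kind bound by NFκB, found in 1.92% of all promoters. With so rare a sequence, 0 of 30 does not set these genes apart, and other sequences that NFκB can bind were not searched. These matches describe the letters in the windows and not binding. The 30 bases around the copy nearest the start are shown for the 5 genes with a promoter entry among the 6 whose unadjusted p was under 0.05 in the comparison of 2 against 2 tumors, with the TATA box of BCL2A1 and the GC box of the others in capitals. All 5 lie on the minus strand and are written 5′ to 3′.
BCL2A1: gaggaaggatatTATAAAgtgatgcaaaca
BMF: tgacgcgcagggGGGCGGggcctcatcagc
BID: cggggcgggccgGGGCGGgcccgggcgtgg
CASP6: aggaagggccgaGGGCGGggccgggcccgg
BAK1: ggtggggaaagtGGGCGGgacatgctcctg
The windows lie at chr15:79971249-79971278 (BCL2A1), chr15:40108907-40108936 (BMF), chr22:17774502-17774531 (BID), chr4:109703452-109703481 (CASP6) and chr6:33580337-33580366 (BAK1). The capitals begin 70, 45, 50, 24 and 78 bases before the start, in that order. BCL2A1 is the one of these 5 with a TATA box, and BMF, BID, CASP6 and BAK1 each have a GC box.

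Most of the death genes differed little between the groups. On the log2(FPKM + 1) scale the median difference, WCE minus vehicle, was -0.02 over the 34 genes and -0.01 over all 13287 entries tested. The difference was under 0.2 in either direction for 27 of the 34 genes (79.4%), against 70.2% of all entries, and for 22 genes the 95% interval lay within 0.5 log2 units of 0. Unadjusted p was under 0.05 by limma for 2 of the 34 genes (5.88%), MCL1 and BMF, both higher with WCE, against 7.1% of all entries (3.78% higher and 3.33% lower). After Benjamini-Hochberg adjustment over all entries no death gene passed 0.05 by limma (lowest adjusted p = 0.623), and 1 entry in the table did (0.00753%). The groups did not overlap for 3 genes (8.82%), BMF and CASP4 with every WCE tumor higher and BCL2L13 with every WCE tumor lower, against 12.8% of all entries (6.37% with every WCE tumor higher and 6.4% with every WCE tumor lower). The exact permutation test of 3 against 3 tumors cannot give a p under 0.1.

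Without vehicle tumor 3 and WCE tumor 1, limma put 6 of the 34 genes (17.6%) under an unadjusted p of 0.05, against 18.4% of all entries. MCL1, BCL2A1 and BMF were higher with WCE (8.82% of the genes, 8.84% of all entries), and BID, BAK1 and CASP6 were lower (8.82%, against 9.59%). The sign of the difference was the same as with 6 tumors for 33 genes, with CFLAR the exception, and the difference was larger in size for 28 genes (82.4%), against 87.1% of all entries. No gene passed after adjustment (lowest adjusted p = 0.174 by limma), and 5 entries in the table did (0.0376%). In both comparisons the share of death genes under the unadjusted threshold was close to the share of the whole table.

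**Figure D2:**
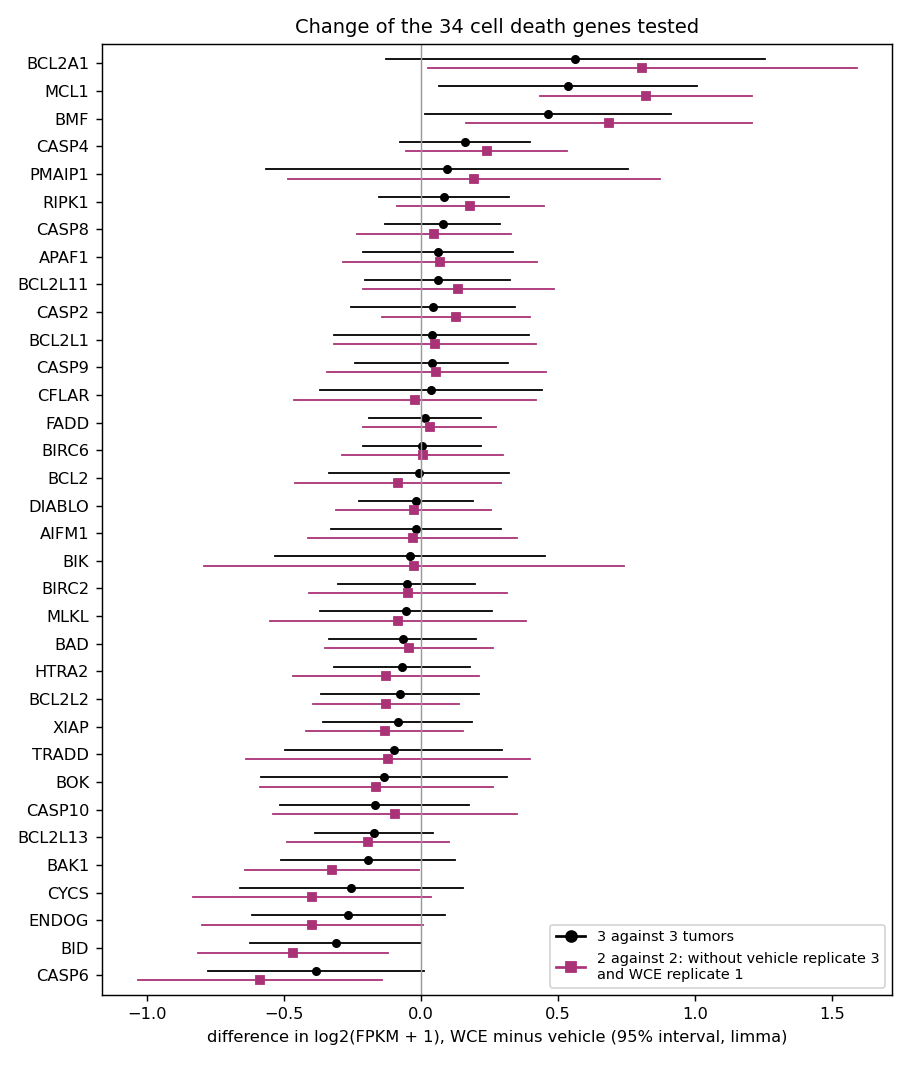
Difference in log2(FPKM + 1), WCE minus vehicle, with its 95% interval from limma for the 34 genes tested, with 3 against 3 tumors (black circles) and without vehicle tumor 3 and WCE tumor 1 (purple squares). The black intervals of MCL1 at 0.54 and BMF at 0.46 exclude 0, and with 2 against 2 tumors those of BCL2A1, BID, CASP6 and BAK1 exclude it too.

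Among the prosurvival genes, BCL2L1 was the most abundant, and its group means lay close together. BCL2L1 (chr20:30252261-30310656, hg19) stood at 162, 199 and 226 FPKM in vehicle tumors 1 to 3 and at 228, 175 and 198 FPKM in WCE tumors 1 to 3. The groups overlapped throughout, and vehicle tumor 1 was the lowest. Means were 196 ± 31.8 FPKM with vehicle and 201 ± 26.5 FPKM with WCE (SD, n = 3), a log2 difference of 0.04 (SE 0.15, 95% interval -0.32 to 0.40, unadjusted p = 0.802 by limma). BCL2 differed by -0.01 (unadjusted p = 0.962 by limma), and the joint BCL2L2 entry by -0.08 (0.549).

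MCL1, a prosurvival protein with a short lifetime, was higher in 2 of the 3 WCE tumors. MCL1 (chr1:150547027-150552214, hg19) stood at 99.9, 128 and 129 FPKM in vehicle tumors 1 to 3 and at 126, 209 and 192 FPKM in WCE tumors 1 to 3. WCE tumors 2 and 3 were above all other tumors, whereas WCE tumor 1 lay among the vehicle tumors, at the level of vehicle tumor 3. Means were 119 ± 16.3 FPKM with vehicle and 176 ± 43.9 FPKM with WCE (SD, n = 3). The log2 difference was 0.54 (SE 0.20, 95% interval 0.07 to 1.008, unadjusted p = 0.0305 and adjusted p = 0.623 by limma, exact permutation p = 0.3). It was 0.82 with 2 against 2 tumors (SE 0.15, unadjusted p = 0.0026, adjusted p = 0.174 by limma). With any one of vehicle tumors 1 and 2 or WCE tumors 2 and 3 left out, the unadjusted p lay at 0.101, 0.05001, 0.103 and 0.101 by limma, and the difference over all 6 omissions ranged from 0.40 to 0.76.

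BCL2A1, a prosurvival gene that NFκB can induce and that is common in blood cells, varied most of the 34 genes within the groups, with a pooled SD of 0.48 on the log2 scale. BCL2A1 (chr15:80253232-80263643, hg19), the gene whose TATA box is shown above, stood at 19.5, 38.3 and 25.3 FPKM in the vehicle tumors and at 26.7, 47.4 and 50.04 FPKM in the WCE tumors. Vehicle tumor 2 lay above WCE tumor 1, so the groups overlapped, and WCE tumors 2 and 3 were again the highest. Means were 27.7 ± 9.62 and 41.4 ± 12.8 FPKM (SD, n = 3), a log2 difference of 0.56 (SE 0.30, unadjusted p = 0.097 by limma, exact permutation p = 0.2). With 2 against 2 tumors the difference was 0.81 (SE 0.31, unadjusted p = 0.0453, adjusted p = 0.265 by limma). With 1 tumor left out in turn it ranged from 0.35, without vehicle tumor 1, to 0.84, without WCE tumor 1. Because blood cells express this gene, the 7 myeloid markers are given beside it: PTPRC, the pan-leukocyte marker CD45, was at 0.11, 0.48 and 0.59 FPKM in the vehicle tumors and 0.67, 0.21 and 0.12 FPKM in the WCE tumors. CSF1R, ITGAM and LYZ were at 0.31 FPKM or lower in all tumors, and the sum of the 7, mostly S100A9, ran from 367 to 1596 FPKM with vehicle and from 582 to 1593 FPKM with WCE. S100A8 was at 23.2, 102 and 255 FPKM with vehicle and at 254, 36.5 and 124 FPKM with WCE. S100A9 was at 318, 793 and 1300 FPKM with vehicle and at 1300, 505 and 1375 FPKM with WCE. It was highest in WCE tumor 3, where PTPRC was at 0.12 FPKM, so the sum cannot be read as an amount of myeloid cells. The log2 differences of S100A8 and S100A9 were 0.30 (unadjusted p = 0.757 by limma) and 0.49 (0.41). CD68 was at 25.3, 30.4 and 40.0 FPKM with vehicle and at 38.7, 39.6 and 43.9 FPKM with WCE, a log2 difference of 0.37 (unadjusted p = 0.0562 by limma) that was 0.57 with 2 against 2 tumors (0.00712), so CD68 and BCL2A1 were both higher and under the unadjusted threshold there. PTPRC was lower in WCE tumors 2 and 3, where BCL2A1 was highest, than in WCE tumor 1, and the part of CD68-bearing cells in the BCL2A1 difference was not tested.

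**Figure D3:**
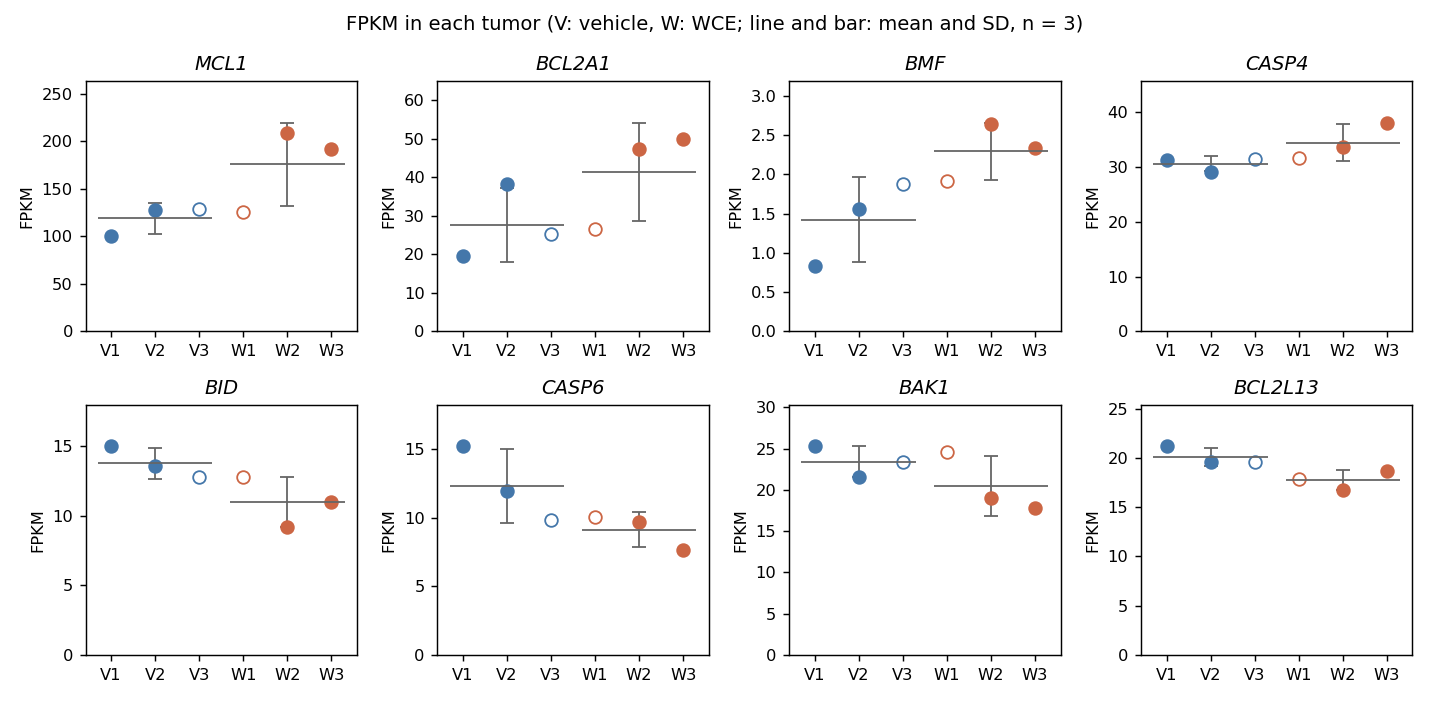
FPKM of the 8 genes whose groups did not overlap or whose unadjusted p was under 0.05 in either comparison, with 1 point per tumor, the mean and SD of each group (line and bar, n = 3) and open points for vehicle tumor 3 and WCE tumor 1. In MCL1 and BCL2A1 WCE tumors 2 and 3 are above the other 4 tumors, in BMF all 3 WCE tumors are above the vehicle tumors, and in all panels except BCL2L13 both open points lie close together.

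MCL1 made up more of the prosurvival transcripts in WCE tumors 2 and 3 than in the other tumors. Of the summed FPKM of BCL2L1, MCL1, BCL2A1 and BCL2, MCL1 made up 35.4%, 34.9% and 33.8% in vehicle tumors 1 to 3 and 33.0%, 48.3% and 43.5% in WCE tumors 1 to 3. BCL2L1 made up 57.5%, 54.4% and 59.4% with vehicle and 59.8%, 40.6% and 45.0% with WCE. The 3 vehicle tumors and WCE tumor 1 were alike in both shares, and WCE tumors 2 and 3 stood apart with a higher MCL1 share and a lower BCL2L1 share. The BCL2L1 level itself, 175 and 198 FPKM there, lay within the 162 to 226 FPKM of the vehicle tumors. The ratio of MCL1 to BCL2L1 was 0.615, 0.642 and 0.569 with vehicle and 0.552, 1.19 and 0.968 with WCE. BCL2A1 contributed 6.64% to 11.3%, and BCL2 at most 0.242% in any tumor. The sum was 283, 366 and 381 FPKM with vehicle and 382, 432 and 441 FPKM with WCE.

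**Figure D4:**
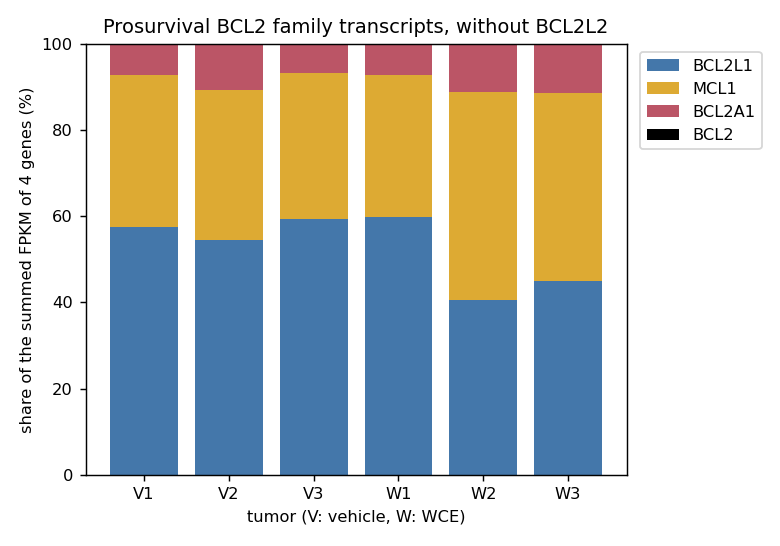
Share of the summed FPKM of BCL2L1, MCL1, BCL2A1 and BCL2 held by each gene in every tumor, in percent (V1 to V3, vehicle; W1 to W3, WCE; BCL2L2 is left out since its entry covers another gene). The MCL1 share is 33.0% to 35.4% in V1, V2, V3 and W1 and 43.5% to 48.3% in W2 and W3, and BCL2 is too low to see.

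Of the 7 BH3-only genes, 6 could be tested, 3 with a positive and 3 with a negative difference. BMF, a BH3-only gene whose protein is tied to the cytoskeleton until it is released, did not overlap between the groups. BMF (chr15:40380092-40401075, hg19) stood at 0.83, 1.56 and 1.88 FPKM in the vehicle tumors and at 1.91, 2.63 and 2.34 FPKM in the WCE tumors. The groups were separated by 1.88 against 1.91 FPKM, which are the values of vehicle tumor 3 and WCE tumor 1. Means were 1.42 ± 0.541 and 2.295 ± 0.362 FPKM (SD, n = 3), a log2 difference of 0.46 (SE 0.19, 95% interval 0.02 to 0.91, unadjusted p = 0.044 and adjusted p = 0.623 by limma, exact permutation p = 0.1). It was 0.69 with 2 against 2 tumors (SE 0.21, unadjusted p = 0.0193, adjusted p = 0.212 by limma). With vehicle tumor 1, the lowest of the 6, left out, the difference was 0.27 (unadjusted p = 0.109 by limma), and without vehicle tumor 2, WCE tumor 2 or WCE tumor 3 the unadjusted p was 0.0628, 0.123 and 0.0998. At these low levels the 1 added before the logarithm makes this difference smaller than that of the FPKM themselves.

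BID, which caspase-8 cuts to carry the death receptor signal to mitochondria, was lower in WCE tumors 2 and 3. BID (chr22:18216906-18257431, hg19, a locus that also holds the microRNA gene MIR3198-1) stood at 14.98, 13.6 and 12.8 FPKM in the vehicle tumors and at 12.8, 9.16 and 11.02 FPKM in the WCE tumors. Vehicle tumor 3 and WCE tumor 1 met at 12.8 FPKM, and the other 2 WCE tumors were below every vehicle tumor. The log2 difference was -0.31 (SE 0.13, unadjusted p = 0.051 by limma, exact permutation p = 0.2) with 6 tumors and -0.47 (SE 0.14, unadjusted p = 0.0177, adjusted p = 0.209 by limma) with 2 against 2. It was -0.20 without WCE tumor 2 and -0.42 without WCE tumor 1.

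PMAIP1 (NOXA), whose protein binds MCL1 and promotes its breakdown, was the most abundant BH3-only gene. PMAIP1 (chr18:57567192-57571538, hg19) stood at 80.4, 136 and 75.7 FPKM in the vehicle tumors and at 70.7, 132 and 109 FPKM in the WCE tumors. Vehicle tumor 2 and WCE tumor 2 were both high, and the log2 difference was 0.10 (SE 0.28, 95% interval -0.56 to 0.76, unadjusted p = 0.744 by limma). BAD, a partner of BCL2L1 controlled by phosphorylation, ran from 72.9 to 95.3 FPKM over all tumors and differed by -0.07. BCL2L11 (BIM), an activator of the pore formers, ran from 3.17 to 3.99 FPKM and differed by 0.06. BIK, found at the endoplasmic reticulum, ran from 3.48 to 7.30 FPKM, with both ends in vehicle tumors, and differed by -0.04. HRK, known from neurons, was listed at 0.13 FPKM in vehicle tumor 2 and at 0 in the other 5 tumors.

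All 3 pore-forming or other BCL2 family members had a negative difference. BAK1, which forms pores in the mitochondrial outer membrane, was at chr6:33540323-33548070 (hg19) with 25.3, 21.5 and 23.4 FPKM in the vehicle tumors and 24.6, 19.0 and 17.9 FPKM in the WCE tumors. WCE tumors 2 and 3 were below all vehicle tumors and WCE tumor 1 was above 2 of them. The log2 difference was -0.19 (SE 0.14, unadjusted p = 0.195 by limma) with 6 tumors and -0.32 (SE 0.12, unadjusted p = 0.0461, adjusted p = 0.266 by limma) with 2 against 2. BCL2L13 (chr22:18121485-18211989, hg19), a mitochondrial BCL2 relative that also acts in the removal of mitochondria, stood at 21.2, 19.5 and 19.5 FPKM in the vehicle tumors and at 17.8, 16.7 and 18.7 FPKM in the WCE tumors. Every WCE tumor was lower than every vehicle tumor, WCE tumor 1 included, with a log2 difference of -0.17 (SE 0.09, unadjusted p = 0.104 by limma, exact permutation p = 0.1). The BCL2L13 difference was -0.19 with 2 against 2 tumors (unadjusted p = 0.156 by limma). BOK, a pore former that acts without BAX and BAK1, ran from 10.1 to 17.7 FPKM, highest in vehicle tumor 1 and lowest in WCE tumor 1, and differed by -0.13 (unadjusted p = 0.508 by limma).

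Of the 6 caspases, 4 had a positive and 2 a negative difference. CASP4, an inflammatory caspase that senses bacterial lipopolysaccharide inside the cell and cuts gasdermin D, was the most abundant. CASP4 (chr11:104813594-104839325, hg19) stood at 31.3, 29.1 and 31.4 FPKM in the vehicle tumors and at 31.6, 33.7 and 38.1 FPKM in the WCE tumors. The groups did not overlap, by 31.4 FPKM in vehicle tumor 3 against 31.6 FPKM in WCE tumor 1, and the log2 difference was 0.16 (SE 0.10, 95% interval -0.08 to 0.40, unadjusted p = 0.153 by limma, exact permutation p = 0.1). It was 0.24 with 2 against 2 tumors (SE 0.12, unadjusted p = 0.0911 by limma).

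CASP6, one of the executioner caspases, had the most negative difference of the 34 genes. CASP6 (chr4:110609785-110624629, hg19) stood at 15.2, 11.9 and 9.84 FPKM in the vehicle tumors and at 10.0, 9.68 and 7.65 FPKM in the WCE tumors. The groups overlapped by vehicle tumor 3, which was below WCE tumor 1, and the range of the vehicle tumors was wider than the distance between the group means of 12.3 ± 2.69 and 9.12 ± 1.29 FPKM (SD, n = 3). The log2 difference was -0.38 (SE 0.17, unadjusted p = 0.0548 by limma, exact permutation p = 0.2) with 6 tumors and -0.59 (SE 0.18, unadjusted p = 0.0191, adjusted p = 0.212 by limma) with 2 against 2. It was -0.23 without vehicle tumor 1 and -0.52 without vehicle tumor 3. The initiators CASP8, CASP9 and CASP2 differed by less than 0.1 with 6 tumors, and CASP2 by 0.13 with 2 against 2. CASP8, activated at death receptors, ran from 9.97 to 11.2 FPKM and differed by 0.08. CASP9, activated by the apoptosome, ran from 3.93 to 5.16 FPKM and differed by 0.04. CASP2, an initiator that can cut BID, ran from 14.7 to 20.0 FPKM and differed by 0.05. CASP10, a close relative of CASP8, was at 0.42 to 0.90 FPKM and differed by -0.17, and it was also the gene that differed most between vehicle tumor 3 and WCE tumor 1, by -0.32 on the log2(FPKM + 1) scale.

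Of the apoptosome and mitochondrial death factors, 5 of 6 had a negative difference, and limma put none under an unadjusted p of 0.05 in either comparison. CYCS, which encodes cytochrome c and has many processed pseudogenes that could share its reads, was at chr7:25158270-25164980 (hg19) with 131, 96.3 and 79.1 FPKM in the vehicle tumors and 81.1, 88.2 and 82.0 FPKM in the WCE tumors. Vehicle tumor 1 alone was far above the rest, and vehicle tumor 3 was below all WCE tumors. The log2 difference was -0.25 (SE 0.17, 95% interval -0.66 to 0.15, unadjusted p = 0.187 by limma), and -0.06 without vehicle tumor 1. With 2 against 2 tumors, which keeps vehicle tumor 1, it was -0.40 (unadjusted p = 0.0646 by limma). ENDOG, a mitochondrial nuclease, stood at 2.59, 3.08 and 2.76 FPKM with vehicle and 2.76, 1.68 and 2.16 FPKM with WCE, a log2 difference of -0.26 (unadjusted p = 0.12 by limma) and of -0.40 (unadjusted p = 0.0526) with 2 against 2.

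The remaining mitochondrial factors differed by less than 0.1. AIFM1, a flavoprotein that moves to the nucleus in a death without caspases, was at 47.0 FPKM in vehicle tumor 1 and at 35.2 to 41.5 FPKM in the other tumors, and it differed by -0.02. DIABLO (Smac), which frees caspases from IAP proteins, ran from 34.4 to 39.0 FPKM and also differed by -0.02. HTRA2, a protease with the same effect on IAP proteins, ran from 14.8 to 18.4 FPKM and differed by -0.07. APAF1, the scaffold of the apoptosome, ran from 2.19 to 2.82 FPKM and differed by 0.06, and its entry spans a locus that also holds FAM71C and ANKS1B.

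The differences of the IAP genes and the death receptor complex were at most 0.10 in size, and limma put none of these genes under an unadjusted p of 0.05 in either comparison. BIRC2 (cIAP1), a ubiquitin ligase in TNF receptor signaling and the most abundant IAP gene here, was at chr11:102217966-102249401 (hg19) with 34.6, 43.6 and 39.8 FPKM in the vehicle tumors and 38.1, 38.8 and 36.3 FPKM in the WCE tumors. The WCE tumors lay inside the range of the vehicle tumors, and the log2 difference was -0.05 (SE 0.11, 95% interval -0.30 to 0.20, unadjusted p = 0.641 by limma). XIAP, the direct inhibitor of caspases, ran from 9.36 to 11.9 FPKM and differed by -0.09. BIRC6, a giant IAP protein, ran from 6.66 to 7.14 FPKM, a ratio of highest to lowest tumor of 1.07, and differed by 0.00.

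FADD, the adaptor that brings caspase-8 to death receptors, was the most abundant of its group. FADD (chr11:70049269-70053508, hg19) stood at 57.9, 58.2 and 55.0 FPKM in the vehicle tumors and at 54.5, 59.0 and 59.6 FPKM in the WCE tumors. Its highest tumor was 1.09 times its lowest, and the log2 difference was 0.02 (SE 0.09, 95% interval -0.19 to 0.22, unadjusted p = 0.857 by limma). RIPK1, a kinase at the branch between survival and death below the TNF receptor, ran from 12.002 to 14.2 FPKM and differed by 0.08. TRADD, the adaptor of that receptor, ran from 9.14 to 13.9 FPKM, with both ends in vehicle tumors, and differed by -0.10. CFLAR (c-FLIP), which holds caspase-8 inactive, stood at 10.6, 14.7 and 15.1 FPKM with vehicle and 16.95, 12.7 and 12.01 FPKM with WCE. The groups of CFLAR overlapped, and its difference of 0.04 with 6 tumors was -0.02 with 2 against 2.

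The necroptosis genes were unequal in level. MLKL, which opens the plasma membrane, was at chr16:74705753-74734789 (hg19) with 7.86, 8.99 and 7.82 FPKM in the vehicle tumors and 7.86, 6.62 and 9.34 FPKM in the WCE tumors. The WCE tumors held both the lowest and the highest value, and the log2 difference was -0.05 (SE 0.13, 95% interval -0.37 to 0.26, unadjusted p = 0.699 by limma). RIPK3, the kinase that activates MLKL, was listed at 0.03 FPKM in WCE tumor 2 and at 0 in the other 5 tumors.

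Vehicle tumor 1 was the tumor most often at an end of the range. It was the highest or the lowest of the 6 tumors in 20 of the 34 genes (58.8%), against 52.9% of all entries, whereas vehicle tumor 3 was in 6 (17.6%, against 16.7%). Without vehicle tumor 1, limma put none of the 34 genes and 3.18% of all entries under an unadjusted p of 0.05. None did without WCE tumor 2 or without WCE tumor 3 either (1.77% and 1.65% of all entries), and 6 did without WCE tumor 1 (17.6%, against 15.3%). The number of death genes under the threshold thus moved with the number for the whole table.

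**Figure D5:**
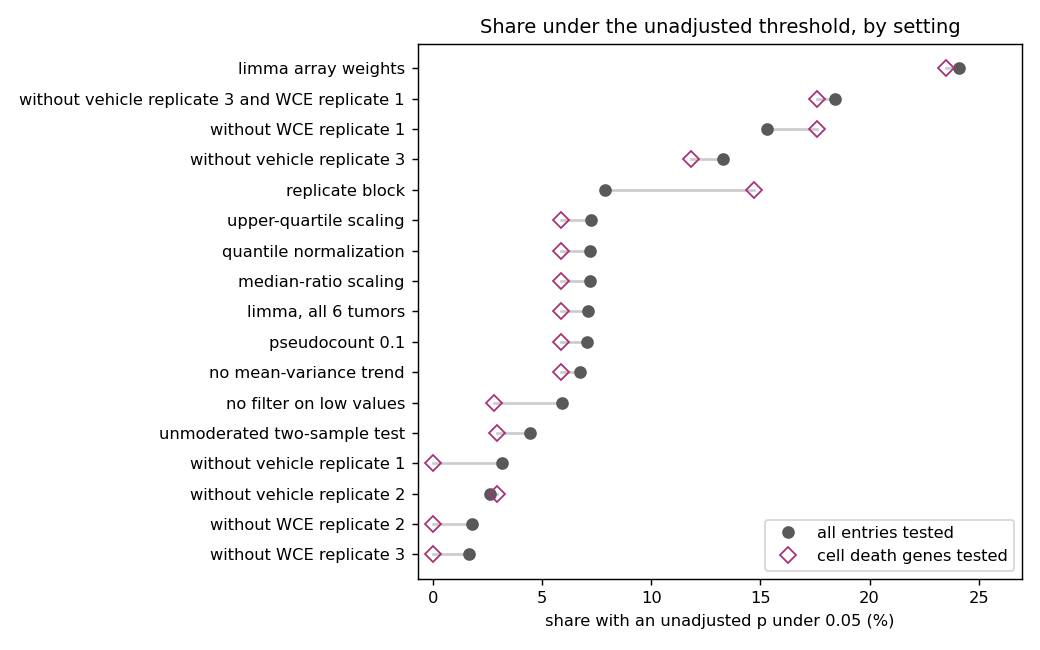
Share of the death genes tested (open diamonds) and of all entries tested (filled circles) with an unadjusted p under 0.05, in percent, with all 6 tumors and under each other setting run. The share of all entries is lowest when WCE tumor 2, WCE tumor 3 or vehicle tumor 1 or 2 is left out, where 0% to 2.94% of the death genes are under the threshold, both shares are highest with array weights (23.5% and 24.1%), and they lie farthest apart with the replicate block (14.7% and 7.89%).

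The other genes of the pathway were taken from a list of 38, of which 31 could be tested. With 6 tumors limma put none of them under an unadjusted p of 0.05, against 7.1% of all entries. Of their differences, 15 were positive and 16 negative. The lowest p was that of TNFRSF1A, the main TNF receptor (log2 difference 0.28, unadjusted p = 0.0628 by limma), and the largest difference that of CASP14, a caspase of skin (-0.35, unadjusted p = 0.613). With 2 against 2 tumors limma put 2 of the 31 under an unadjusted p of 0.05 with WCE higher, against 8.84% of all entries. Another 2 had WCE lower (6.45%, against 9.59%). TNFRSF1A (0.42, unadjusted p = 0.0214 by limma) and the joint entry of the death receptor gene TNFRSF25 and PLEKHG5 (0.42, 0.0244) were higher with WCE. BAX, the partner of BAK1 (-0.33, 0.0216), and PGAM5, a mitochondrial phosphatase (-0.46, 0.026), were lower.

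A pair of target lists was set beside these, which share genes with them. Of 15 genes that p53 can induce, limma put none under an unadjusted p of 0.05 with 6 tumors, 6 differences were positive and 9 negative, and the median was -0.15. With 2 against 2 tumors 6 of the 15 (40%) were lower with an unadjusted p under 0.05, against 9.59% of all entries. These were BID, CASP6 and BAX, given above, and TP53I3, an oxidoreductase (-0.36, unadjusted p = 0.0329 by limma), PERP, a membrane protein of desmosomes (-0.45, 0.0105), and CDKN1A, the cell cycle inhibitor p21 (-0.53, 0.0425). None of the 6 passed after adjustment over all entries. The list was chosen with earlier results of these data known, and BID, CASP6 and BAX are already counted above. PC-3 cells carry no functional p53, and a part of p53 in these differences was not tested. Of 9 survival genes that NFκB can induce, none had an unadjusted p under 0.05 with 6 tumors, 4 differences were positive and 5 negative, and BCL2A1 alone was under it with 2 against 2. Of all entries, 7.1% were under it with 6 tumors and 18.4% with 2 against 2. After BCL2A1, the largest difference in that list was that of TNFAIP3, a brake on NFκB signaling (-0.30, unadjusted p = 0.149 by limma).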

How the data were processed

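RNA of 6 PC-3 tumors was sequenced from stranded mRNA libraries. The authors deposited FPKM values per gene for each tumor, and the submitters' processing notes name TopHat2 2.0.13, Cufflinks and the builds hg19 and mm10. The roles of the builds, the annotation and the normalization are not given in the sources used here. FPKM hold no read counts, so depth is known only relative to one tumor, from the commonest ratio of low values. Table loci are hg19, counted from 1.

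Groups and replicate numbers came from the sample titles. Entries with a mean of at least 0.5 FPKM (13287) were tested on log2(FPKM + 1) with limma 3.58.1 in R 4.3.3 (mean-variance trend, two-sided, Benjamini-Hochberg over all entries), with exact permutation tests of single genes. The labels say that the tumors are individual. The limma p-values set a group difference against the spread between samples within the groups, moderated over all entries. For the nearly identical pair, vehicle tumor 3 and WCE tumor 1, the label could not be checked. The steps were tested on simulated data. A log2 difference of low genes is understated by the 1 that was added.

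The genes, lists and settings were chosen with earlier results of these data known. All 36 genes were named, with full values where the groups did not overlap, where unadjusted p was under 0.05 in either comparison, or where the mean was the highest of its role. From the lists of other death genes, p53 targets and NFκB targets, genes with unadjusted p under 0.05 or the largest difference were named. In the other lists, PIDD1 and GSDME were matched by older symbols. The locus of 8 genes is shared with another entry (BID, BAD, BOK, APAF1, HTRA2, ENDOG, BIRC6 and CFLAR), and BID and BOK among others overlap short or antisense genes. RefSeq promoters (GRCh38.p14) were used for sequence only, and no coordinates were converted. Python 3.11.15 was used for tables and figures. Alternatives were a pseudocount of 0.1, no filter, median-ratio, quantile and upper-quartile scaling, no trend, an unmoderated test, array weights, the replicate block, each tumor left out, and 2 against 2 tumors.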

Additional observations from a re-analysis of the deposited data

How the results depend on the processing

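No death gene passed after adjustment in any of the 16 settings run, and 15 of the 34 kept their direction in all of them. Genes with an unadjusted p under 0.05, 2 by limma with all 6 tumors, were 1 without the filter (BMF was lost), 1 with the unmoderated test in place of limma (BCL2L13, with MCL1 and BMF lost), 8 with array weights, 5 with the replicate block, 6 with 2 against 2 tumors and 0 to 6 with 1 tumor left out. Over all entries the 944 became 593 unmoderated, 3201 with array weights, 2449 with 2 against 2 and 219 to 2033 with 1 left out. The 1 entry past adjustment became 0 with the unmoderated test, and there were 5 with 2 against 2 and 1 to 7 with 1 left out. The 31 other death genes gave 0 with all 6 tumors (all entries 7.1%). They gave 1 with quantile normalization (all entries 7.19%), 2 with array weights (24.1%), 1 with the block (7.89%) and 4 with 2 against 2 (18.4%). With 1 tumor left out they gave 0 to 5, against 1.65% to 15.3% of all entries. The median difference of the death genes ranged from -0.041 to 0.015 with 1 tumor left out.

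Tumors with the same replicate number had correlations of -0.24, 0.16 and -0.093 in their deviations from the group means. Deviations within a small group constrain each other, so these values cannot decide whether the numbers pair tumors. The block brought BCL2A1, BID and CASP6 under 0.05. Array weights, from 0.408 for vehicle tumor 1 to 4.00 for WCE tumor 3, brought in BAK1, BCL2A1, BID, CASP4, CASP6 and ENDOG.

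Differences near 0 turned sign: AIFM1 (0.024), BIRC6 (-0.018) and DIABLO (0.014) with quantile normalization, AIFM1 (0.00016), BCL2 (0.00083) and DIABLO (0.0015) with upper-quartile scaling, AIFM1 (0.076), APAF1 (-0.010), BCL2L1 (-0.036), BOK (0.054), CFLAR (-0.17) and MLKL (0.020) with array weights, and CFLAR (-0.022) with 2 against 2. With 1 tumor, or vehicle tumor 3 and WCE tumor 1, left out, the differences of 19 genes ran across 0: AIFM1 -0.093 to 0.11, APAF1 -0.0033 to 0.11, BAD -0.12 to 0.015, BCL2 -0.097 to 0.047, BCL2L1 -0.088 to 0.15, BCL2L11 -0.0061 to 0.14, BIK -0.28 to 0.17, BIRC2 -0.14 to 0.023, BIRC6 -0.025 to 0.019, BOK -0.29 to 0.048, CASP2 -0.039 to 0.17, CASP9 -0.035 to 0.13, CFLAR -0.11 to 0.13, DIABLO -0.056 to 0.032, FADD -0.0089 to 0.056, HTRA2 -0.13 to 0.016, MLKL -0.16 to 0.056, PMAIP1 -0.098 to 0.36 and TRADD -0.28 to 0.0017. The causes were not tested. Depth per tumor is known only relative to another, so genes under 1 FPKM carry an unknown counting error.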
